A study of Mus musculus with 18 samples.

Results

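The 37 genes described here carry out mitosis: they encode the cyclins and kinases that start it, the checkpoint that holds it, the centromere and kinetochore proteins that attach chromosomes to the spindle, the motors that build the spindle and the proteins that split the cell. They were chosen by name, with earlier results of these data known. Each was read from its brightest probe set with that single gene symbol. Of the 37, 35 had such a probe set and all 35 passed the filter on dim genes, so they are 35 of 13190 tested genes. Ccnb1 and Nuf2 had no probe set named with 1 symbol here and were not analysed. The 35 genes lie on 16 chromosomes.

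The cells were bone marrow derived macrophages of male C57BL/6 mice aged 10 weeks, 3 animals in all. Marrow was cultured for 1 week in 10% serum with CSF1 (recombinant, human, 10000 U/ml) and replated in the same, and the series calls its arrays biological replicates. CSF1 is the growth factor that macrophage precursors need to survive and divide, and all groups had it. One group was taken at baseline, and the other groups received dexamethasone, a synthetic glucocorticoid, at 100 nM for 1, 2, 4, 10 or 24 h, with 3 arrays in each of the 6 groups. The labels name no untreated cells at the later times, so the effect of dexamethasone and that of time after replating cannot be told apart. They also do not say which array came from which animal, so a p-value here measures the spread between arrays.

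In a dividing cell, cyclin A and cyclin B activate the kinase CDK1, the CDC25 phosphatases remove its inhibitory phosphates, and Polo-like and Aurora kinases drive the spindle. The spindle checkpoint holds the anaphase-promoting complex until all kinetochores are attached; the complex then marks cyclin B and other proteins for destruction. Most of these genes are transcribed late in the cycle and share promoter elements: the cell cycle genes homology region (CHR), bound by the MuvB core of the DREAM and FOXM1 complexes, and the CCAAT box, bound by NF-Y. Glucocorticoids are known to slow the division of several cell types.

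The promoters of mitosis genes that gave the clearest time courses are shown here, chosen after their values had been seen. Aurka, though called at 4 h, is not shown. Each printed stretch holds the letters of a CCAAT box, and some also hold those of a CHR. Both were found in most of the group's promoters. Each stretch runs from 120 bases before to 30 bases after the start used in the RefSeq promoter table of build GRCm38.p6, on the strand of the gene. Capitals mark the letters of a CHR (TTTGAA or TTCGAA) or a CCAAT box (CCAAT), read on either strand, so that ATTGG is a CCAAT box on the opposite strand. Cenpa lies at chr5:30666766-30666915 on the plus strand, Cenpe at chr3:135212443-135212592 on the plus strand, Plk1 at chr7:122159315-122159464 on the plus strand and Prc1 at chr7:80294331-80294480 on the plus strand. Cdk1, at chr10:69352883-69353032 on the minus strand, is added for its central role, after its values had been seen.
Cenpa: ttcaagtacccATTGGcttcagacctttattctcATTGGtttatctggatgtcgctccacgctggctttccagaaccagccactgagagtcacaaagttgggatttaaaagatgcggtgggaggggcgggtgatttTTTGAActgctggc
Cenpe: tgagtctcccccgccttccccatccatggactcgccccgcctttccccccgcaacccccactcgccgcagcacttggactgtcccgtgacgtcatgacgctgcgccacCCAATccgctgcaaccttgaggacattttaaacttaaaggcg
Plk1: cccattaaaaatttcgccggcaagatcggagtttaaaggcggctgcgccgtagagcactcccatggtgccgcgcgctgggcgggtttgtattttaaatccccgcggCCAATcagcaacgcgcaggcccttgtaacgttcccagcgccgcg
Prc1: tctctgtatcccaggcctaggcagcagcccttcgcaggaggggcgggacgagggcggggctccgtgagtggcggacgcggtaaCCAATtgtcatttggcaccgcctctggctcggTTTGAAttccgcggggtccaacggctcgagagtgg
Cdk1: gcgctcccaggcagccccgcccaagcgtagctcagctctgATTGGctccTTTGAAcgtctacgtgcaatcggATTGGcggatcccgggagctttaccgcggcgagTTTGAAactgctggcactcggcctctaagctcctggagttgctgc
Cdk1 holds a pair of CHR matches, which begin 71 and 15 bases before the start, each downstream of a CCAAT match. In Cenpa the CHR letters begin at base 17 after the start and in Prc1 at 5 bases before it. In Plk1 they begin at base 31, just past the printed stretch. The printed Cenpe stretch has a CCAAT match and no CHR letters.

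RefSeq promoters of 300 bases (250 before to 50 after the start) were found for 29 of the 35 genes and for 10621 tested genes. Ccna2, Cdc25c, Aurkb, Kif20a, Tpx2 and Foxm1 had no entry. The CHR letters were present in 24 of the 29 promoters (82.8%), against 14.1% of the promoters of all tested genes. The CCAAT letters were present in 23 of 29 (79.3%) against 38.3%, and 14 of 29 (48.3%) held 2 or more CCAAT matches against 14.1%. Both elements together stood in 21 of 29 (72.4%) against 5.78%. In 22 of 29 (75.9%) a CHR match began within 50 bases of the start, against 3.52% of all tested genes; this window was chosen after the positions had been seen. The promoters of Mad2l1, Cenpe, Cenpk, Nusap1 and Birc5 held no CHR letters in the 300 bases. TTCGAA is its own reverse complement and was counted once per place. The letters TTTCCCGC or TTTGGCGC, forms of the E2F site of DNA replication genes, were in 0 of the 29 promoters and in 2.87% of all, which says only that these exact letters are not in these windows.

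**Figure D1:**
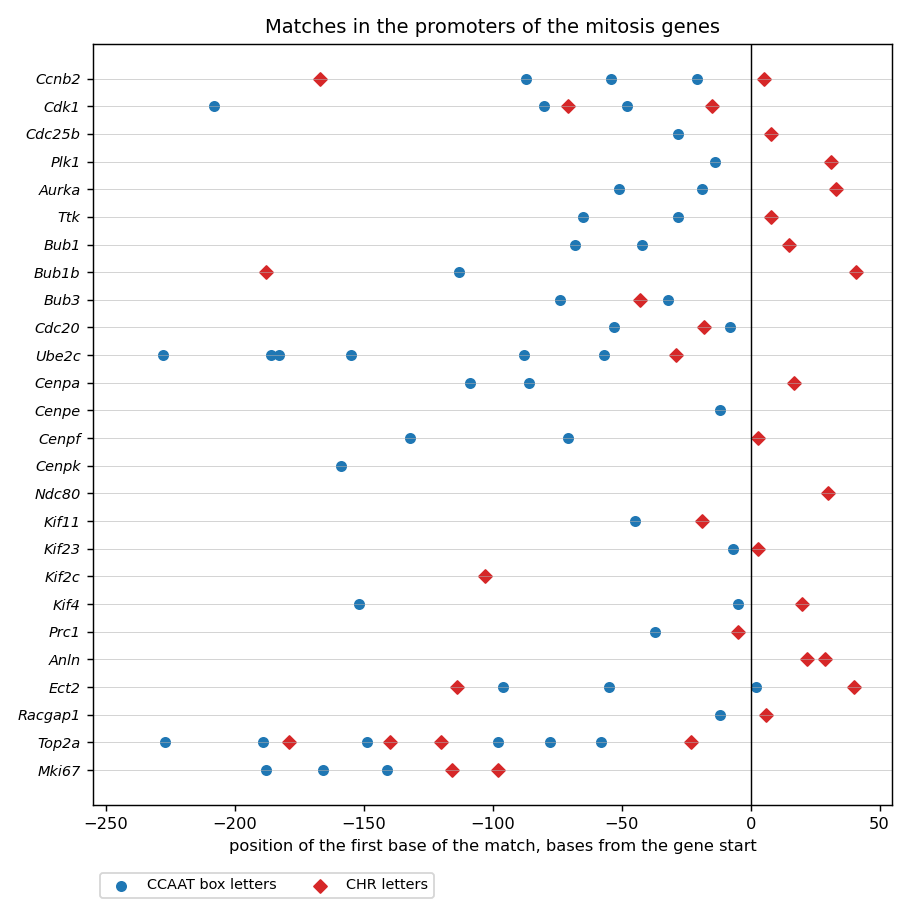
Positions of CHR letters (red diamonds) and CCAAT letters (blue circles) in 26 of the mitosis gene promoters, by the first base of each match in bases from the gene start; the other 3 promoters with an entry held neither. Most CHR matches lie within 50 bases of the start, and most CCAAT matches lie upstream of them.

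All 35 mitosis genes were measured on every array. Each lay above a background level of 3.91 log2, taken from the upper end (95th percentile, averaged over arrays) of 23 nonspecific control probe sets, and the lowest value of any of them on any array stood 1.35 log2 above the 40th percentile of that array, the level of the filter. Their median within-group SD was 0.107 log2, against 0.139 over all tested genes. The RNA came from whole cultures, so fewer cells in mitosis and less RNA per cell cannot be told apart.

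The time course of the mitosis genes was shallow. They stood near baseline at 1 and 2 h, lay slightly lower as a group at 4 h, stood near baseline again at 10 h, and ended at or a little above baseline at 24 h. The median difference from baseline over the 35 genes was -0.03 log2 at 1 h, -0.01 at 2 h, -0.11 at 4 h, 0.04 at 10 h and 0.06 at 24 h. Over all tested genes the same median lay between 0.00 and 0.01 at each time. A gene is called here when limma's Benjamini-Hochberg adjusted p over all 13190 genes was below 0.05. That fit did not use the replicate number, and the counts depend on this. With the replicate number as a block, 7 of 35 were called at 4 h, all lower (10.6% of all genes were called). In that fit 3 were called at 24 h (17.1% of all genes).

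**Figure D2:**
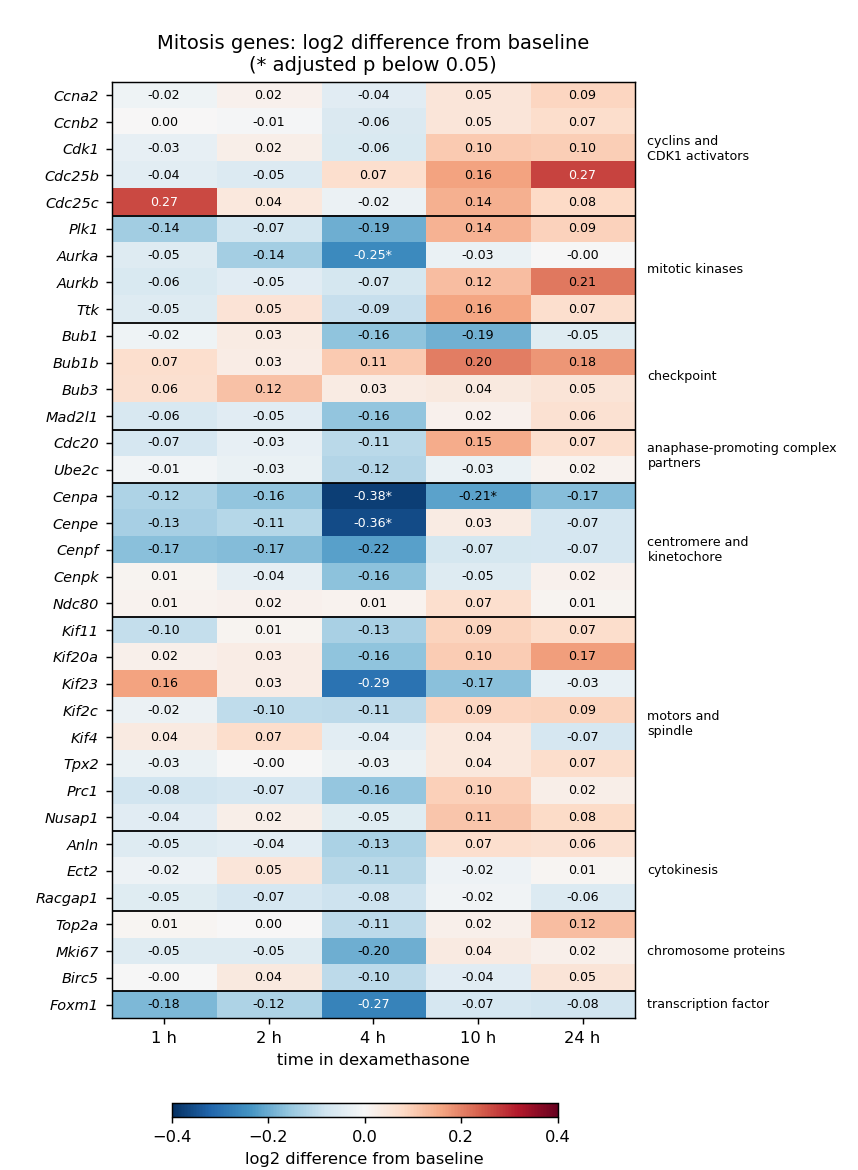
Log2 difference from baseline of each of the 35 mitosis genes (one line per gene, in groups by role) at 1, 2, 4, 10 and 24 h; blue is lower, red is higher and a star marks an adjusted p below 0.05. The 4 h column is blue for 31 of 35 genes and holds 3 of the 4 stars; the other is Cenpa at 10 h.

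At 1 h, 0 of 35 mitosis genes were called, and 0.387% of all tested genes were called in either direction; 1 mitosis gene had an unadjusted p below 0.05. That gene was Cdc25c, a phosphatase that activates CDK1, which read 7.09, 6.70 and 6.98 log2 at baseline and 7.24, 7.11 and 7.20 at 1 h. All 3 arrays at 1 h lay above all baseline arrays, with a difference of 0.27 ± 0.11 log2 (SE, n = 3 arrays per group; adjusted p = 0.959). The difference at 2 h was 0.04, and the step from 1 h to 2 h, -0.22 ± 0.11, did not pass the test (adjusted p = 0.769).

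At 2 h the count was again 0 of 35, against 2.15% of all genes in either direction, with 2 genes at an unadjusted p below 0.05. Bub3, a spindle checkpoint protein, read 10.91, 10.76 and 10.97 at baseline and 10.99, 11.01 and 10.99 at 2 h, a difference of 0.12 ± 0.04 log2 (adjusted p = 0.281). The other was Cenpa, at -0.16 ± 0.07 (adjusted p = 0.470). In the step from 1 h to 2 h 0 of 35 were called, against 1.12% of all genes, and 0 had an unadjusted p below 0.05.

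At 4 h, 3 of the 35 mitosis genes were called lower, where 3.03% of all tested genes were called lower, and 0 were called higher, where 4.5% of all genes were. The 3 genes were Cenpa, Cenpe and Aurka. Of the 35, 31 had a difference below 0, against 48.2% of all genes, and 10 (28.6%) had an unadjusted p below 0.05, against 18.2% of all genes. The differences ran from -0.38 to 0.11 log2. Of 22 other probe sets of these genes that passed the filter, 15 were below 0 at 4 h.

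Cenpa is the histone H3 variant that marks the centromere. Its 3 arrays read 10.36, 10.33 and 10.35 log2 at baseline, 10.27, 10.12 and 10.28 at 1 h, and 10.23, 10.09 and 10.24 at 2 h. They read 10.05, 9.74 and 10.13 at 4 h, then 10.20, 10.06 and 10.14 at 10 h and 10.16, 10.15 and 10.22 at 24 h. Every treated array lay below every baseline array, and the 4 h group held the lowest value, on replicate 2. Cenpa fell by 0.38 ± 0.07 log2 at 4 h, a change of -22.9% (adjusted p = 0.000848). It was also called at 10 h, the only mitosis gene called against baseline at that time, having fallen by 0.21 ± 0.07 (adjusted p = 0.0481). The 10 h call was lost when 13 of the 18 arrays were left out one at a time, with an adjusted p of up to 0.179 without replicate 2 at 10 h. At 24 h the difference was -0.17 ± 0.07 (adjusted p = 0.135). A second, dimmer Cenpa probe set differed from it: it stood at -0.31 log2 at 4 h, 0.30 at 10 h and 0.19 at 24 h, so the lower level after 4 h rests on 1 probe set. The 4 h call was kept when any single array was left out and lost with the probe set of largest variance (adjusted p = 0.492) or the mean of the gene's probe sets (adjusted p = 0.0812).

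Cenpe, the kinesin that moves chromosomes to the middle of the spindle from the kinetochore, had the clearest fall and return. It read 9.17, 9.27 and 9.30 log2 at baseline, 9.02, 9.08 and 9.26 at 1 h, and 9.20, 9.07 and 9.13 at 2 h. At 4 h it read 8.83, 8.75 and 9.09, at 10 h 9.27, 9.20 and 9.38, and at 24 h 9.19, 9.14 and 9.21. The 4 h arrays lay below all arrays at baseline and all at 10 h. Cenpe fell by 0.36 ± 0.08 log2 at 4 h (adjusted p = 0.00263), and rose by 0.39 ± 0.08 from 4 h to 10 h (adjusted p = 0.00259). Both calls held in all 29 alternative settings, the 18 single-array omissions included. The second Cenpe probe set gave -0.29 at 4 h and 0.30 for the step.

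Aurka, the Aurora kinase of centrosomes and spindle poles, read 8.95, 8.82 and 9.10 log2 at baseline and 8.91, 8.88 and 8.94 at 1 h. It read 8.67, 8.85 and 8.95 at 2 h and 8.61, 8.72 and 8.79 at 4 h. The arrays at 10 h read 8.96, 8.86 and 8.97 and those at 24 h 9.02, 9.01 and 8.85. All 4 h arrays lay below all baseline arrays, though by a narrow gap from replicate 2 at baseline. Aurka fell by 0.25 ± 0.08 log2 at 4 h, a change of -16.2% (adjusted p = 0.0394). The call was lost when replicate 1 or 3 of the baseline was left out (adjusted p = 0.0805 and 0.235), and when replicate 1 or 2 of the 4 h group was (adjusted p = 0.193 and 0.0917). It was also lost in 5 other settings of the fit, with an adjusted p of 0.0512 to 0.0976. Only 1 probe set measured this gene.

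**Figure D3:**
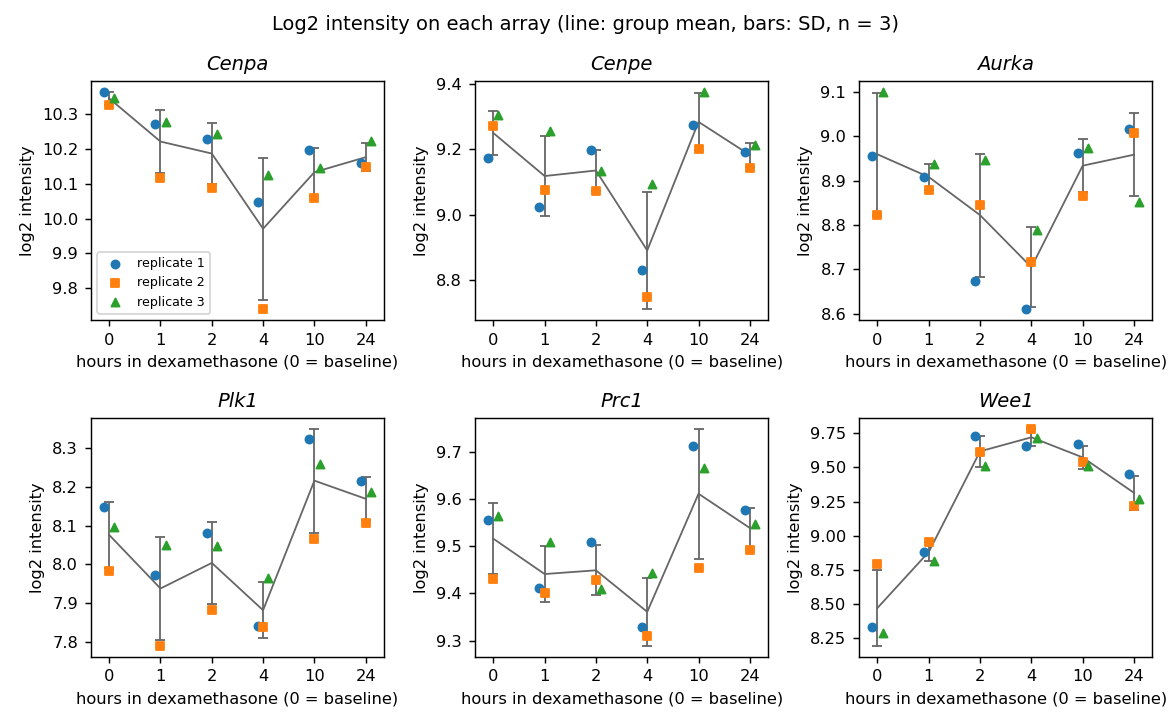
Log2 intensity on each array against hours in dexamethasone (0 is baseline; the times are evenly spaced, not to scale) for the 5 mitosis genes called at 4 h, at 10 h or in the step from 4 h to 10 h, and for Wee1; symbols are replicates, lines join group means and bars are SD of 3 arrays. The 5 mitosis genes have their lowest mean at 4 h, while Wee1 has its highest there.

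By role, the 5 centromere and kinetochore genes had a median of -0.22 log2 at 4 h. Besides Cenpa and Cenpe they include Cenpf, a kinetochore protein at -0.22, Cenpk, a member of the constitutive centromere network at -0.16, and Ndc80, which binds microtubules at the kinetochore and stood at 0.01. The 4 mitotic kinases had a median of -0.14: besides Aurka, Plk1 stood at -0.19, Ttk, the kinase that starts checkpoint signalling, at -0.09, and Aurkb, the kinase of the chromosomal passenger complex, at -0.07. A second Aurkb probe set gave 0.14, so its direction is unsettled. The 8 motor and spindle genes had a median of -0.12 and all 8 were below 0, though second probe sets of Tpx2 and Prc1 both gave 0.04. Among them Kif23, a kinesin of the central spindle, stood at -0.295 ± 0.113 (adjusted p = 0.137), with arrays of 8.09, 7.62 and 7.96 at baseline and 7.78, 7.44 and 7.56 at 4 h, which overlap. Foxm1, the transcription factor of the late cell cycle, stood at -0.27, with 1 further probe set at 0.37 and 1 at -0.02, so its direction is unsettled.

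The remaining roles moved less at 4 h. The cyclins and CDK1 activators had a median of -0.04: Ccna2, cyclin A, stood at -0.04, Ccnb2, a cyclin B, at -0.06, Cdk1 at -0.06, and the phosphatases Cdc25b at 0.07 and Cdc25c at -0.02. The checkpoint genes were divided, with Bub1 and Mad2l1 both at -0.16, Bub3 at 0.03 and Bub1b at 0.11; the second Bub1b probe set that passed the filter gave -0.13. The partners of the anaphase-promoting complex, its activator Cdc20 and its ubiquitin-conjugating enzyme Ube2c, stood at -0.11 and -0.12. The cytokinesis genes Anln, Ect2 and Racgap1 stood at -0.13, -0.11 and -0.08, and a second Racgap1 probe set gave 0.02. The chromosome proteins Mki67, the Ki-67 antigen, Top2a, the topoisomerase that untangles sister chromosomes, and Birc5, survivin, stood at -0.20, -0.11 and -0.10. In the fit without the replicate number, no gene of any role beside Cenpa, Cenpe and Aurka was called at 4 h. Kif23, Bub1, Mad2l1 and Mki67 were called lower too with the replicate number as a block. Their adjusted p was 0.0463, 0.0401, 0.0187 and 0.00694 in that fit, where 10.6% of all genes were called.

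Arrays of single genes gave a similar count. At 4 h, 5 mitosis genes had all 3 arrays below all 3 baseline arrays (Plk1, Aurka, Cenpa, Cenpe and Top2a), where 10.1% of all tested genes did, so 5 of 35 is near that share. None had all 3 above, where 12.2% of all tested genes did.

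From 4 h to 10 h, 3 mitosis genes were called higher, where 2.35% of all tested genes were, and 0 were called lower, where 1.83% of all genes were. They were Cenpe, Plk1 and Prc1. With the replicate number as a block, 13 were called, all higher, where 7.16% of all genes were called in either direction. The difference was above 0 for 34 of 35 genes, against 50.4% of all genes, with a median of 0.16 log2 against 0.00. An unadjusted p below 0.05 was found for 15 of 35 (42.9%), against 15.8% of all genes. Of the 22 other probe sets that passed the filter, 17 were above 0 in this step. The second Aurkb probe set gave -0.01, beside 0.20 for the one used.

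Plk1, the Polo-like kinase that acts at mitotic entry and at the spindle, read 8.15, 7.98 and 8.10 log2 at baseline, 7.97, 7.79 and 8.05 at 1 h, and 8.08, 7.88 and 8.05 at 2 h. It read 7.84, 7.84 and 7.97 at 4 h, 8.32, 8.07 and 8.26 at 10 h, and 8.21, 8.11 and 8.19 at 24 h. All 10 h arrays lay above all 4 h arrays. Plk1 rose by 0.34 ± 0.08 log2 in the step, or by 26.2% (adjusted p = 0.0209), while neither its 4 h difference from baseline (-0.19 ± 0.08, adjusted p = 0.202) nor its 10 h difference (0.14) passed the test. Omitting replicate 1 or 2 at 4 h raised the adjusted p of the step to 0.0948 and 0.0905, and omitting replicate 1 or 3 at 10 h raised it to 0.106 and 0.0801. Without the intensity trend it was 0.0527, and with only the 4 h and 10 h arrays fitted 0.0595. The call was kept with the replicate number as a block (adjusted p = 0.0013), a pairing that the labels do not state.

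Prc1, which bundles the microtubules of the central spindle, read 9.56, 9.43 and 9.56 log2 at baseline, 9.33, 9.31 and 9.44 at 4 h, and 9.71, 9.45 and 9.67 at 10 h. Its 10 h arrays lay above all 4 h arrays, replicate 2 by a narrow gap. Prc1 rose by 0.25 ± 0.06 log2 in the step, or by 19.0% (adjusted p = 0.0224). The replicate block kept the call (adjusted p = 0.00232). The same 4 omissions as for Plk1 ended this call, with an adjusted p of 0.0992 and 0.116 for the 4 h arrays and 0.122 and 0.0974 for the 10 h arrays. The second Prc1 probe set gave 0.15 for the step and 0.04 at 4 h, and the call was lost with it (adjusted p = 0.461), with the mean of both (0.0897), without the trend (0.0853) and with only these arrays fitted (0.0963).

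In this step the medians by role were 0.24 log2 for the mitotic kinases, 0.18 for motors and spindle, 0.17 for the anaphase-promoting complex partners, 0.14 for centromere and kinetochore, 0.12 for chromosome proteins, 0.11 for cyclins and CDK1 activators, 0.09 for cytokinesis and 0.05 for the checkpoint. Bub1 was the single gene below 0, at -0.03. The arrays at 10 h lay wholly above those at 4 h for 7 of 35 genes (Plk1, Aurka, Cenpe, Kif20a, Prc1, Top2a and Mki67), where 9.68% of all tested genes did so. The kinesin Kif20a, for example, read 8.75, 8.60 and 8.90 at 4 h and 8.95, 8.91 and 9.18 at 10 h. Its difference of 0.26 ± 0.10 did not pass the test (adjusted p = 0.183), but did with the replicate number as a block (adjusted p = 0.0108).

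The step before it, from 2 h to 4 h, had 33 of 35 mitosis genes below 0, with a median of -0.09 log2, but 0 were called, against 1.9% of all genes in either direction; 6 had an unadjusted p below 0.05. Cenpe and Cenpa had the smallest p, at -0.24 ± 0.08 (adjusted p = 0.12) and -0.22 ± 0.07 (adjusted p = 0.153). Without 4 h replicate 3 both would be called, at -0.34 (adjusted p = 0.0150) and -0.29 (adjusted p = 0.0448). Cenpe, Cenpa and Bub1 were called lower with the replicate number as a block (adjusted p = 0.0161, 0.0134 and 0.0270). In that fit 3.79% of all genes were called.

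Against baseline, at 10 h, 1 of 35 mitosis genes was called lower, Cenpa, where 6.16% of all tested genes were, and 0 were called higher, where 8.29% were. The genes with the largest difference in their role were Cdc25b at 0.16, Ttk at 0.16, Bub1b at 0.20, Cdc20 at 0.15, Kif23 at -0.17, Anln at 0.07, Birc5 at -0.04 and Foxm1 at -0.07. Bub1b had an adjusted p of 0.0955 and its other probe set gave 0.02. Bub1, the kinase that recruits other checkpoint proteins, stood at -0.19 ± 0.07 (adjusted p = 0.0844), and its second probe set at -0.26. The replicate block called Bub1 lower and Bub1b higher as well (adjusted p = 0.00712 and 0.0338). In that fit 18.5% of all genes were called.

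At 24 h, 0 of 35 mitosis genes were called, although 12.7% of all tested genes were called in either direction; 5 (14.3%) had an unadjusted p below 0.05, against 24.9% of all genes. The 95% confidence interval of the difference lay within 0.5 log2 of 0, a 1.41-fold change, for all 35 mitosis genes, and for 9901 of the 13190 tested genes. The interval ends ran from -0.49 to 0.48 log2. For Cdk1 the interval ran from -0.01 to 0.21 and for Top2a from 0.02 to 0.23. The median SE was 0.08 log2.

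Differences at 24 h that came nearest to the threshold were mostly upward. Cdc25b, the phosphatase that starts CDK1 activation at the centrosome, read 8.18, 8.14 and 8.32 log2 at baseline and 8.65, 8.25 and 8.55 at 24 h. Replicate 2 at 24 h lay within the baseline range, and the difference was 0.27 ± 0.10 (adjusted p = 0.0922); without that array it would be 0.38 (adjusted p = 0.0175). Aurkb read 8.70, 8.57 and 8.68 at baseline and 8.85, 8.73 and 9.01 at 24 h, without overlap, at 0.21 ± 0.09 (adjusted p = 0.116). The replicate block called Cdc25b and Aurkb higher (adjusted p = 0.00615 and 0.0155) and Cenpa lower (adjusted p = 0.0228). In that fit 17.1% of all genes were called. Top2a read 10.71, 10.74 and 10.73 at baseline and 10.88, 10.76 and 10.91 at 24 h, again without overlap. Its difference was 0.12 ± 0.05 (adjusted p = 0.126), and without 24 h replicate 2 it would be 0.17 (adjusted p = 0.0478). A second, dimmer Top2a probe set that passed the filter gave -0.03. Of the other genes with the largest difference in their role, Bub1b stood at 0.18, Kif20a at 0.17, Cdc20 at 0.07, Anln at 0.06 and Foxm1 at -0.08. The second Bub1b probe set that passed the filter gave -0.07 at 24 h, so its direction is unsettled.

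From 10 h to 24 h, 0 of 35 were called, against 2.16% of all genes in either direction, and 0 had an unadjusted p below 0.05. The smallest p belonged to Top2a, at 0.10 ± 0.05 (adjusted p = 0.396), and to Bub1, at 0.14 ± 0.07 (adjusted p = 0.428). Over the whole course, the F test on all 5 times called 4 of 35 mitosis genes, Cenpe, Cenpa, Plk1 and Top2a, where it called 17.4% of all tested genes.

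**Figure D4:**
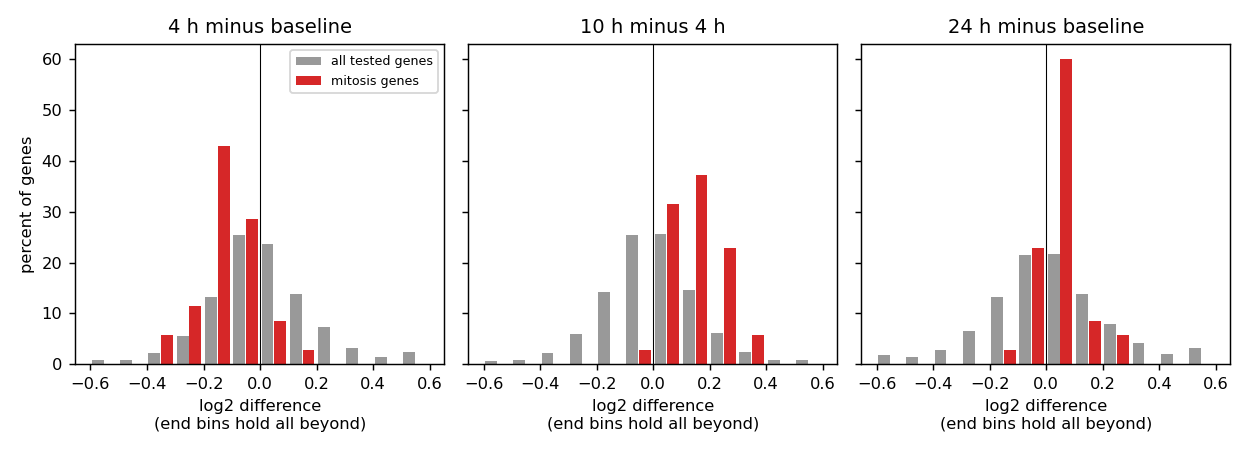
Percent of the 35 mitosis genes (red) and of all 13190 tested genes (grey) in bins of log2 difference, for 4 h against baseline, 10 h against 4 h and 24 h against baseline; the end bins hold everything beyond. The mitosis genes sit mostly below 0 at 4 h, almost wholly above 0 from 4 h to 10 h, and close to 0 without the wide tails of the other genes at 24 h.

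The mitosis genes varied together from array to array. After the mean of each group was subtracted, the median pairwise Pearson correlation over the 18 arrays was 0.529 for the 595 pairs of mitosis genes, and 98.3% of pairs were above 0. It was 0.126 for DNA replication genes, 0.076 for macrophage markers and 0.009 for all tested genes. The genes that followed the mean of the other members most closely were Ccnb2 (r = 0.929) and Kif20a (r = 0.917), and those that followed it least were Bub3 (r = 0.380) and Aurka (r = 0.421). These correlations share arrays, labelling and normalisation and are given as a description.

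Much of this shared variation followed the replicate number. The mean over the 35 genes was lowest on replicate 2 and highest on replicate 3 in 6 of 6 groups, on average 0.08 log2 below and 0.08 above the group mean. When the mean of each replicate number was also subtracted, the median correlation of the pairs was 0.147. The median over all tested genes on an array ran from 6.32 to 6.54 log2 and was not lowest on replicate 2 in any group. The labels do not say what replicates of the same number share.

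This spread is as large as the time course itself. The mean over the 35 genes read 9.21, 9.06 and 9.22 log2 on the baseline arrays and 9.04, 8.93 and 9.16 on the 4 h arrays. It read 9.19, 9.10 and 9.30 at 10 h and 9.25, 9.11 and 9.26 at 24 h. The group means differed from baseline by -0.12 at 4 h, 0.03 at 10 h and 0.04 at 24 h, while arrays of 1 group spanned 0.0985 to 0.230. The ranges at 4 h and at baseline overlap, since replicate 3 at 4 h lay above replicate 2 at baseline. Within each replicate number, however, the 4 h array was the lowest of the 6.

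The group medians therefore depended on single arrays. At 4 h the median over the 35 genes was -0.06 log2 without 4 h replicate 2, -0.07 without baseline replicate 1 or 3, -0.16 without baseline replicate 2 and -0.17 without 4 h replicate 3; it was below 0 each time, with 26 to 33 genes below 0. In the step from 4 h to 10 h it was 0.09 without 4 h replicate 2 or 10 h replicate 3 and 0.21 without 10 h replicate 2. The small positive medians at the later times did not keep their sign: the 24 h median was -0.01 without baseline replicate 2 and 0.02 without 24 h replicate 3, and the 10 h median was -0.01 without 10 h replicate 3 and 0.01 without baseline replicate 2.

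**Figure D5:**
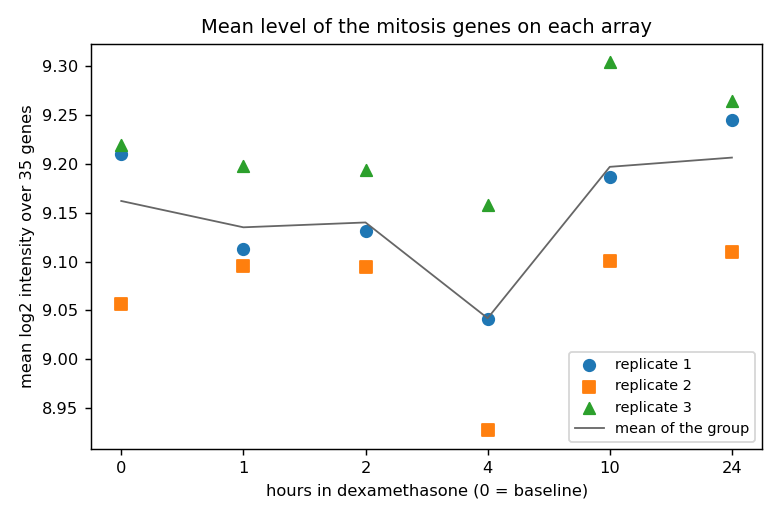
Mean log2 intensity over the 35 mitosis genes on each array against hours in dexamethasone (0 is baseline; times evenly spaced, not to scale); symbols are replicates and the line joins group means. Replicate 3 is highest and replicate 2 lowest in every group, and each replicate number has its lowest array at 4 h.

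Other genes of mitosis, outside the 35, were read from 4 further lists of kinetochore and checkpoint, spindle and centrosome, condensin and cohesin, and anaphase-promoting complex and regulator genes. Of 119 tested, 0 were called at 1 h and 1 at 2 h, against 0.387% and 2.15% of all tested genes. At 4 h 3 were called lower and 3 higher, against 3.03% and 4.5% of all genes, with a median of -0.04 log2. At 10 h 4 were lower and 8 higher, against 6.16% and 8.29%, with a median of 0.03. At 24 h 0 were lower and 10 higher, where 705 and 973 of all 13190 genes were, with a median of 0.07. Those called lower at 4 h were Spdl1, a recruiter of dynein to kinetochores (-0.32 ± 0.06), Dlgap5, a spindle assembly protein (-0.30 ± 0.08), and Ube2s, which elongates ubiquitin chains for the anaphase-promoting complex (-0.18 ± 0.04). The subunits of the constitutive centromere network Cenpq and Cenpu were called higher at 10 h, by 0.60 ± 0.08 and 0.54 ± 0.11, and at 24 h, by 0.39 ± 0.08 and 0.56 ± 0.11. The median pairwise correlation of the 119 genes over arrays, with group means subtracted, was 0.183, beside 0.529 for the 35.

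Wee1 stood apart from these genes. It encodes the kinase that places the inhibitory phosphate on CDK1, the opposite of what the CDC25 phosphatases do. Its arrays read 8.34, 8.79 and 8.29 log2 at baseline, 8.88, 8.95 and 8.81 at 1 h, and 9.73, 9.61 and 9.51 at 2 h. They read 9.66, 9.78 and 9.72 at 4 h, 9.67, 9.54 and 9.51 at 10 h and 9.46, 9.22 and 9.27 at 24 h. All arrays from 1 h on lay above all baseline arrays. Wee1 rose by 1.14 ± 0.09 log2 at 2 h (adjusted p = 5.48e-09), 1.25 ± 0.09 at 4 h (adjusted p = 5.35e-10), 1.10 ± 0.09 at 10 h (adjusted p = 3.57e-09) and 0.84 ± 0.09 at 24 h (adjusted p = 3.68e-07). A second Wee1 probe set gave 1.08, 1.22, 1.08 and 0.82 at these times.

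The genes of DNA replication and of the G1/S transition, which precede mitosis in the cycle, were read in the same way. Of 53 tested, 8 were called lower at 4 h, where 3.03% of all tested genes were, and 8 at 10 h, where 6.16% were. Their medians were -0.12 and -0.10 log2, and 0 were called higher at either time, against 4.5% and 8.29% of all genes. Mcm2, a subunit of the replicative helicase, fell by 0.37 ± 0.07 at 4 h and by 0.41 ± 0.07 at 10 h. From 10 h to 24 h 5 were called higher, where 131 of all 13190 genes were. Among them were Mcm2 at 0.34 ± 0.07 and Dut at 0.34 ± 0.07. At 24 h only Pcna, the sliding clamp of DNA polymerase, was called against baseline, having fallen by 0.19 ± 0.04. Of all tested genes 12.7% were called at 24 h in either direction. In the step from 4 h to 10 h the median of the replication genes was 0.00 log2, beside 0.16 for the mitosis genes; the difference between the lists was not tested.

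Markers of the cell types that such a culture could hold were read beside these values. Of 14 tested macrophage markers, 13 were above background on all arrays, and their summed intensity ran from 33170 to 34707 over the arrays from baseline to 10 h and from 35171 to 35599 at 24 h. Single markers moved more: 1 was called lower and 1 higher at 4 h, 0 and 4 at 10 h, and 2 and 4 at 24 h. The largest rise was 1.88, 2.12 and 2.10 log2 at these times. Of all tested genes 3.03% were called lower and 4.5% higher at 4 h, and 6.16% and 8.29% at 10 h. At 24 h 705 of all 13190 genes were called lower and 973 higher. Of 10 markers of dividing progenitors only Kit, the stem cell factor receptor, was above background on all arrays; their summed intensity ran from 179.7 to 191.6 at baseline, 148.1 to 174.4 at 4 h, 134.2 to 160.7 at 10 h and 125.0 to 146.5 at 24 h. Kit was lower at 4 h (-0.53 ± 0.16 log2, adjusted p = 0.0365), at 10 h (-1.50 ± 0.16) and at 24 h (-1.32 ± 0.16), and was called at all 3 times. Of the 8 tested progenitor markers, Kit among them, 5 were below 0 at 4 h, 2 at 10 h and 5 at 24 h, with medians of -0.045, 0.08 and -0.06 log2. Kit alone was called lower, and Flt3, a receptor of early progenitors, was called higher at 10 h (0.36 ± 0.12). The 8 neutrophil markers summed to between 847.3 and 1362.5 at baseline and between 901.7 and 1239.8 at 4 h. At 4 h all 8 were below 0, with a median of -0.07 log2, and 0 were called; at 10 h 3 were called lower (Ltf, S100a9 and Camp; median of the 8 -0.32), and at 24 h 3 lower (S100a9, Ngp and Ltf) and 1 higher (Mmp8). Of 4 tested stromal, endothelial and osteoclast markers, Kdr, an endothelial growth factor receptor, was called lower at 4 h (-0.93 ± 0.17), 10 h (-0.98 ± 0.17) and 24 h (-0.87 ± 0.17). At each of these times 2 of the 4 were below 0 and 2 above, with medians of -0.02, -0.08 and -0.15 log2, and no other was called. Of 4 tested erythroid, megakaryocyte and mast cell markers, Hba-a1, a globin, was called higher at 4 h (0.51 ± 0.12), while 2 of the 4 were below 0. The 8 markers of that list on the array summed to between 2891.2 and 3681.4 over all groups, with 1 above background on all arrays. Of 6 lymphocyte markers 0 were called at 4 or 24 h. RNA quality can be read from the 3' and 5' control probe sets for Gapdh: their log2 difference was 0.06 ± 0.03 (SD, n = 3) at baseline, 0.17 ± 0.02 at 1 h, 0.15 ± 0.08 at 2 h, 0.19 ± 0.02 at 4 h, 0.20 ± 0.09 at 10 h and 0.20 ± 0.03 at 24 h. For Actb it was 0.38 ± 0.02 at baseline and between 0.40 and 0.43 in the treated groups. The part of these differences in the mitosis genes' values was not tested.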

How the data were processed

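RNA was measured on 18 single-colour Affymetrix arrays. The deposited values are linear intensities per probe set, 5.37 to 15224, which the authors made by RMA (affy), per the submitters' processing notes. RMA equalises the arrays, which would hide a change common to most genes. Log2 was taken here. Of 45141 probe sets, 28898 had 1 gene symbol, 551 several and 15588 none; 28689 matched RefSeq by Entrez ID. In baseline replicate 1, 211 consecutive probe sets fall by a constant log2 step; they were left out on all arrays, 1 of them from a mitosis gene. A gene's brightest probe set was used, and 3 arrays had to reach their 40th percentile. Arrays have no read depth; their number limits the precision.

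Tests used limma 3.58.1 in R 4.3.3 (lmFit over all 18 arrays, 1 mean per group, then eBayes with an intensity trend), checked on simulated data. The simulated arrays varied independently, with no effect of the replicate number, so that check does not cover such an effect. Two-sided p-values were adjusted by Benjamini-Hochberg over 13190 genes within a comparison (threshold 0.05); errors are limma standard errors unless named SD. Alternatives covered a replicate block, probe set choice, filter, normalisation, trend, arrays fitted, the stepped run, the adjustment and leaving out each array. Full values are given for up to 4 called genes per comparison with the largest change, or the 2 smallest p-values where none was called, and differences for the largest change per role at 10 and 24 h; other genes named were chosen after their values were seen. The members and all gene lists were chosen with earlier results of these data known, and no list was tested as a set. Promoters came from RefSeq, GRCm38.p6, with the start listed first; that of Aurka is not printed.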

Additional observations from a re-analysis of the deposited data

Results flagged for a closer look

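The effects at 4 h and at 10 h differed for 3 mitosis genes, by the test of 10 h against 4 h in limma. Cenpe was 0.39 log2 higher at 10 h than at 4 h (0.3926), called lower at 4 h and not called at 10 h. Plk1 was 0.34 log2 higher (0.3352) and Prc1 0.25 log2 higher (0.2508), neither called against baseline at either time. The comparisons of 4 h and 10 h with baseline share the baseline arrays; the step itself does not use them. Groups of 3 arrays are too small for the check on single outlying arrays.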

How the results depend on the processing

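Counts of called mitosis genes, out of 35, moved with several settings. With the replicate number as a block they were 7 at 4 h, all lower (10.6% of all genes were called in that fit), 3 at 10 h, 2 lower and 1 higher (18.5%), 3 at 24 h, 1 lower and 2 higher (17.1%), 3 from 2 h to 4 h, all lower (3.79%), 13 from 4 h to 10 h, all higher (7.16%), and 17 in the F test (24.6%). The labels do not state a pairing, so it is inferred from the data alone. Over all genes, arrays of the same number correlated at 0.024 to 0.29 after group means were removed, arrays of different number at -0.227 to 0.076, and 18 of 18 arrays correlated best with their own number. With the probe set of largest variance the counts were 1 at 4 h, 0 at 10 h and 2 in the F test, and with the mean of probe sets 1 at 4 h and 0 at 10 h. At 10 h the count was 0 also with no filter, quantile normalisation again, no trend, the stepped run kept, or p-values adjusted over comparisons together. Without the trend it was 1 from 4 h to 10 h and 1 in the F test; with only the groups compared, 1 at 24 h and 1 from 4 h to 10 h. Leaving out 1 array gave 2 to 5 at 4 h, 0 to 2 at 10 h, 0 to 2 at 24 h, 0 to 2 from 2 h to 4 h, 1 to 7 from 4 h to 10 h and 1 to 7 in the F test. The 5 at 4 h came without baseline replicate 2, and the 7 from 4 h to 10 h without 4 h replicate 3; each of these omissions gave 7 in the F test. The 2 at 24 h came without 24 h replicate 2. The 1 from 4 h to 10 h came without 4 h replicate 1 or 2 or 10 h replicate 1 or 3, and the 1 in the F test without 4 h replicate 2.

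Values that changed sign, with the cause not tested, were few. With the probe set of largest variance they were Anln at 10 h (-0.27), Ttk at 10 h (-0.063), Bub3 from 1 h to 2 h (-0.088), Cenpa at 2 h (0.10), 10 h (0.30) and 24 h (0.19), and Foxm1 at 10 h (0.27) and 24 h (0.41). With the mean of probe sets they were Anln at 10 h (-0.10) and Cenpa at 10 h (0.045) and 24 h (0.0098). With 1 array left out, Cdc20 at 24 h ran from -0.014 (without baseline replicate 2) to 0.13, Foxm1 at 10 h from -0.27 to 0.039 (above 0 without 10 h replicate 1 or 2) and Foxm1 at 24 h from -0.28 to 0.14 (above 0 without 24 h replicate 2). Of the alternative values of named genes, 911 kept direction and side of the threshold, 43 lost and 13 gained the call, and 15 changed sign.

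Aurka at 4 h was called in 20 of 29 alternatives, Cenpa at 4 h in 27, Cenpa at 10 h in 9, Plk1 and Prc1 from 4 h to 10 h in 23 and 21, and Cenpe in 29 of 29 for both of its calls.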

Other observations

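Genes that brake or start the cycle upstream of mitosis were read from a further list. Of 19 tested CDK inhibitors, D cyclins and pocket proteins, 1 was called lower and 2 higher at 4 h. At 10 h 3 were called lower and 4 higher, and at 24 h 2 lower and 3 higher. Over all tested genes 3.03% were called lower and 4.5% higher at 4 h, and 6.16% and 8.29% at 10 h. At 24 h 705 of all 13190 genes were called lower and 973 higher. Cdkn1b, the CDK inhibitor p27, rose by 0.51 ± 0.09 log2 at 4 h, 0.61 ± 0.09 at 10 h and 0.32 ± 0.09 at 24 h. A second, dimmer Cdkn1b probe set gave 0.01, 0.40 and 0.13 at these times, so the 4 h rise rests on 1 probe set. Cdkn1c, the CDK inhibitor p57, fell by 1.02 ± 0.21 at 10 h and by 2.51 ± 0.21 at 24 h. Among the D cyclins, which carry the growth factor signal to the cycle, Ccnd1 fell by 0.38 ± 0.06 at 10 h and by 0.46 ± 0.06 at 24 h, while Ccnd3 rose by 0.38 ± 0.09 at 4 h, 0.53 ± 0.09 at 10 h and 0.55 ± 0.09 at 24 h. The genes of this list were chosen with earlier results known.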
